A study of Mus musculus with 21 samples.

Results

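The 7 genes described here code for muscle proteins with LIM domains, ankyrin repeats or Xin repeats that sit where force is passed along or between heart muscle cells. They are Xirp1, Xirp2, Ankrd1, Ankrd23, Csrp3, Fhl1 and Fhl2, taken by gene name from the deposited gene table with earlier results of these data known. They are 7 of the 19096 genes of that table and of 23855 genes with reads. RNA was sequenced from 21 hearts of male C57BL/6NJ mice, 1 library per heart. From an age of 8 to 10 weeks, mice ate chow or a high-fat diet (60% of calories) for 10 weeks, and they were also randomised to an AAV (adeno-associated virus) that carried renin or to a control. Hearts were taken 6 weeks after retro-orbital injection. High-fat renin, the group with both exposures, had 5 hearts, chow renin and high-fat control had 6 each, and chow control had 4. The series text names the control as a null vector and the sample labels as novirus, so it is called only the control here. The promoter of the AAV and the part of the heart that was sampled are not given in the sources used here.

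Heart muscle cells are built from sarcomeres anchored at Z-discs and joined end to end at intercalated discs. The proteins at these sites carry load and are also known to pass signals about stretch to the nucleus. Xirp1 and Xirp2 code for Xin-repeat proteins that bind actin filaments at the intercalated disc. Ankrd1 and Ankrd23 code for ankyrin-repeat proteins that bind the elastic part of titin and are also found in the nucleus. Csrp3 codes for muscle LIM protein at the Z-disc, and Fhl1 and Fhl2 code for LIM-only proteins that bind titin. Ankrd1 in particular is widely used as a marker of stretched or overloaded heart muscle.

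Per length, in TPM (length-corrected transcript abundance), Csrp3 had the highest median level over the 21 libraries at 1098, with a range of 891.3 to 1717. Fhl2 followed at a median of 672.4 TPM and Ankrd1 at 586.1 TPM, and these neighbours overlapped, with a range of 568.7 to 955 for Fhl2 and a highest level of 1508 for Ankrd1. Ankrd23 had a median of 224.6 TPM (102.9 to 683.5). Fhl1 (46.2 TPM), Xirp1 (24.1 TPM) and Xirp2 (16.8 TPM) were the lowest, and the range of Xirp2 (7.88 to 89.0) spanned both of the others. The order differed by group. Mean Ankrd1 was above Fhl2 in high-fat renin (1239 and 775.4 TPM) and chow renin (694.8 and 637.3 TPM), and below it in both control groups. Mean Xirp2 was above Xirp1 in high-fat renin only (51.33 and 33.15 TPM). The lowest gene-level count in any library was 1432 estimated reads, for Fhl1.

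Libraries held 18.7 to 29.3 M estimated reads, and those of chow control (18.7 to 21.4 M) were all below those of the other groups, so depth and group cannot be told apart for chow control. All libraries carried heart muscle transcripts: the 9 ventricular and general cardiomyocyte markers summed to 51930 to 73150 CPM (library-scaled counts, after TMM normalization) and none was at 0. That sum was 51930 to 56720 CPM in high-fat renin, below chow control (60900 to 73150 CPM) without overlap, and it overlapped chow renin (55010 to 59210 CPM) and high-fat control (56030 to 66570 CPM). The score of 5 fibroblast markers, as mean log2 CPM, was 5.93 ± 0.17 (SD, n = 5) in high-fat renin. It was 5.42 ± 0.24 (SD, n = 6) in chow renin, and in the 6 high-fat control libraries it was 5.68 ± 0.44 (SD). The summed fibroblast markers were at 500.9 to 727.7 CPM in high-fat renin and 371 to 671.2 CPM in chow control. The part of either in the results was not tested. In 5 libraries (chow control replicate 3, chow renin replicates 1 and 3, high-fat control replicate 3 and high-fat renin replicate 3) the atrial markers Sln, Myl7, Myl4 and Dkk3 summed to 306.5 to 693.6 CPM, against 4.99 to 28.8 CPM in the other 16. A further atrial marker, Bmp10, was too low to be tested, at 0.910 CPM or less in every library. All chow renin libraries had more central neuron and glia transcripts: 9 markers summed to 210.3 to 344.2 CPM there and to 61.0 to 117.3 CPM in the other groups. A clock score, the mean log2 CPM of 4 clock genes of one phase minus that of 8 genes of the opposite phase, was -3.09 ± 0.42 (SD, n = 5) in high-fat renin, -3.63 ± 0.12 (n = 6) in high-fat control, -3.29 ± 0.12 (n = 6) in chow renin and -3.92 ± 0.17 (n = 4) in chow control. High-fat renin replicate 1 was at -2.39, above the other 4 libraries of its group (-3.47 to -3.11), and it had the lowest share of mitochondrial reads of all libraries, 29.8%. Group accounted for 66.9% of the variance of the clock score and 86.5% of that of the neuron and glia score. In heart tissue of mixed cell types, fewer cells of a type and less RNA per cell cannot be told apart.

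Group differences were tested with edgeR's quasi-likelihood F test over 15216 genes, and a gene was called at a Benjamini-Hochberg adjusted p under 0.05. In high-fat renin hearts 4 of the 7 genes (Xirp2, Ankrd23, Ankrd1 and Fhl1) were higher than in chow control, where 8.29% of all genes were called, 4.05% higher and 4.25% lower. Against high-fat control, 5 of 7 were higher (Xirp2, Ankrd23, Ankrd1, Fhl1 and Csrp3), with a background of 11.1% called, 6.07% higher and 5.08% lower. Against chow renin, 7 of 7 were higher, where 22.6% of all genes were called, 9.8% higher and 12.8% lower. With chow renin against chow control, 0 of 7 were called by edgeR (13.5% of all genes, 10.1% higher and 3.36% lower), 1 of 7 had an unadjusted p under 0.05 (25.1% of all genes), and DESeq2 and limma called 0. With high-fat control against chow control, 0 of 7 were called by edgeR (0.0657% of all genes, 0.0131% higher and 0.0526% lower), 0 of 7 had an unadjusted p under 0.05 (11% of all genes), and DESeq2 and limma called 0. The interaction, the renin effect under high-fat feeding minus that on chow, was called for 1 of 7 genes, Xirp2, with 10.4% of all genes called, 3.14% higher and 7.3% lower. Its unadjusted edgeR p was under 0.05 for 7 of 7 (23% of all genes). The median log2 fold change of the 7 genes was 0.60, 0.48 and 0.63 for high-fat renin against chow control, high-fat control and chow renin, beside 0.015, -0.006 and 0.017 over all genes. These 3 comparisons share the high-fat renin libraries. The 7 genes were chosen with earlier results of these data known, so their contrast with all genes is a description and not a test.

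The background itself moved with the libraries and genes taken. With 1 library left out, the share of all genes called ran from 3.67% (without chow control replicate 4) to 11.4% against chow control, from 4.58% (without high-fat renin replicate 1) to 15.8% against high-fat control and from 16.3% to 24.2% against chow renin. Among the 5560 genes with a mean of at least 20 CPM, which include all 7, the shares called were 15.7%, 24.9% and 17.2% in that order, with 5, 6 and 4 of the 7 called, and for chow renin against chow control 3.44%, with 0 of the 7. With limma on log2(TPM + 1) the split was 9.97% higher and 1.18% lower against high-fat control, and 1.77% higher and 14.3% lower against chow renin.

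Alternatives ended some of these calls. With the clock score as a term, edgeR called 0 of 7 genes for high-fat renin against chow control and 0 of 7 against high-fat control, and it called 0 of all 15216 genes in both comparisons. With the neuron and glia score as a term, 0 of 7 were called against chow renin, where 0.302% of all genes were called in place of 22.6%. Since both scores differ between the groups, a term for either score and the groups cannot be told apart fully, and what part either has in the results was not tested. Without high-fat renin replicate 1, the library of that group with the highest clock score, calls ended for Ankrd1 against chow control, for Csrp3 and Fhl1 against high-fat control, and for Xirp1, Ankrd1, Csrp3 and Fhl2 against chow renin. Without the 5 libraries with atrial transcripts, an alternative added after the data were seen, 4 of 7 genes were called against chow control, 5 against high-fat control and 4 against chow renin, with 8.34%, 9.83% and 16.2% of all genes called. Upper-quartile scaling called 4 of 7 against chow renin, with 20.3% of all genes called there, 5.55% higher and 14.8% lower, and it gave 10.7% higher and 1.74% lower for chow renin against chow control and 1.85% higher and 7.89% lower for the interaction.

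**Figure D1:**
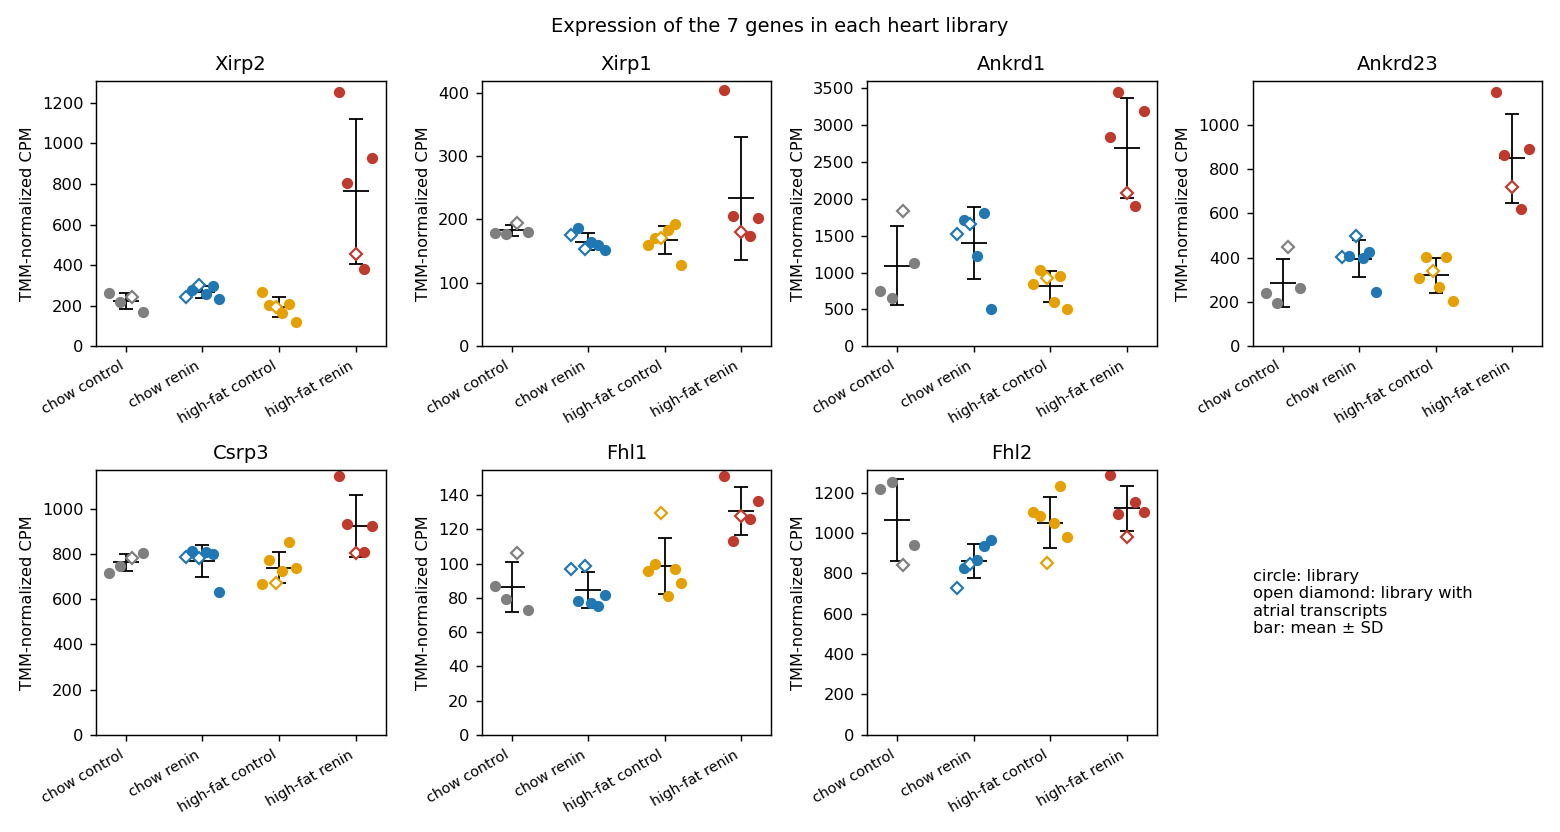
TMM-normalized CPM (y axis, from 0) of each gene in every library (points) by group (x axis), with the group mean ± SD as bars and libraries with atrial transcripts as open diamonds. All 5 high-fat renin libraries lie above every other library for Xirp2, Ankrd1 and Ankrd23, and 1 high-fat renin library at 404.7 CPM stands apart for Xirp1. The share of all genes whose groups separate without overlap is not given, here or in the text.

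**Figure D2:**
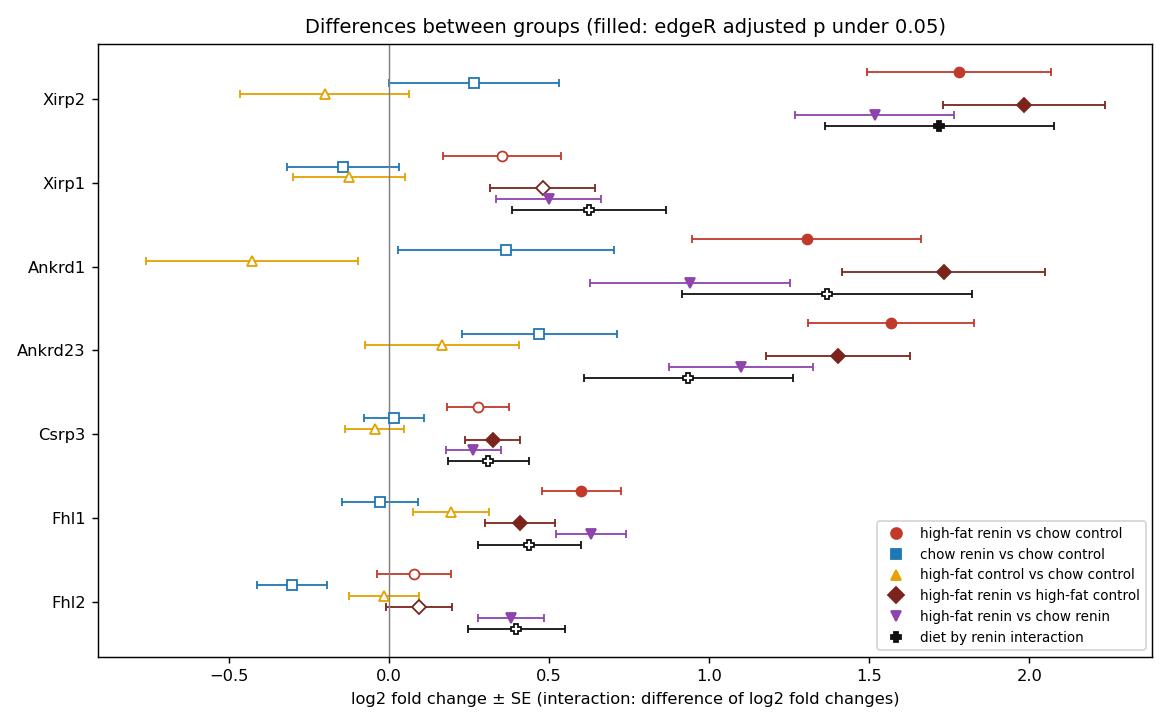
Log2 fold changes with standard errors (x axis) of the 7 genes (y axis) in the 5 comparisons of groups and the interaction, with filled symbols where the edgeR adjusted p is under 0.05. The 3 comparisons that hold high-fat renin lie to the right of 0 for every gene, from 0.08 for Fhl2 to 1.98 for Xirp2, and no symbol is filled for the single exposures.

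Xirp2 (ENSMUSG00000027022, chromosome 2, 67446002 to 67526614, plus strand, GRCm38) had the largest fold change of the 7 in each comparison of high-fat renin. Its start region is shown because RefSeq's promoter table (GRCm38.p6) places there the only match among the 10 windows of these genes to the MEF2 motif, searched on both strands. MEF2 factors are transcription factors of muscle, and the match lies 74 to 65 bases before the start, with its inner 6 bases in capitals. The window spans the 250 bases before the start, at chr2:67445752-67446001.
Xirp2 promoter: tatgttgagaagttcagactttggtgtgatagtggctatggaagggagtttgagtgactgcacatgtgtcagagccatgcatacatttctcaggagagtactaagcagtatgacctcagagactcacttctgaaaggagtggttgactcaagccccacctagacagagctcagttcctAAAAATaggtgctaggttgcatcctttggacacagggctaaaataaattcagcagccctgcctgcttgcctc
These exact letters occur in 0.103% of 32851 windows of the same length, and a match of letters does not show that a factor binds.

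In chow control the Xirp2 level was 261.9, 218.1, 240.2 and 168.9 CPM in replicates 1 to 4. In high-fat renin it was 1251, 805.5, 456.3, 378.9 and 928.9 CPM in replicates 1 to 5. Chow renin ran from 231.9 to 299.4 CPM with a median of 267.1, and high-fat control from 121.3 to 265.2 CPM with a median of 198.9. Every high-fat renin library was above every library of the other groups, and replicates 1, 2 and 5 stood higher than replicates 3 and 4. Xirp2 was 3.44-fold higher in high-fat renin than in chow control (log2 fold change 1.78 ± 0.29 SE, edgeR adjusted p = 0.00152). It was 3.95-fold higher than in high-fat control (log2 1.98 ± 0.25 SE, adjusted p = 0.000442) and 2.86-fold higher than in chow renin (log2 1.52 ± 0.25 SE, adjusted p = 0.000172). Renin on chow gave a log2 fold change of 0.26 ± 0.27 SE (adjusted p = 0.611), and the interaction was 1.72 ± 0.36 SE (adjusted p = 0.00337). No single library left out ended these calls of Xirp2. The clock score as a term took the log2 fold changes to 0.72 against chow control (adjusted p = 0.745) and 1.27 against high-fat control (adjusted p = 0.222). The neuron and glia score as a term took the Xirp2 log2 fold change against chow renin to 0.72 (adjusted p = 0.895) and the interaction to 0.72 (adjusted p = 1). Nearly all of its TPM, 99.8% on average, came from the transcript Xirp2-202, whose annotated coding sequence is 9849 bases.

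Xirp1 (ENSMUSG00000079243, chromosome 9, 120013755 to 120023598, minus strand), which codes for the other Xin-repeat protein, had smaller differences. In chow control its level was 178.2, 177.6, 195.2 and 179.5 CPM in replicates 1 to 4. The 5 high-fat renin libraries were at 404.7, 205.5, 179.5, 174.4 and 202.8 CPM in replicates 1 to 5. Chow renin ran from 151.3 to 186.8 CPM (median 161.9) and high-fat control from 127.6 to 192.3 CPM (median 170.2). The groups overlapped, and replicate 1 of high-fat renin stood apart from the next library, replicate 2. Xirp1 was 1.41-fold higher in high-fat renin than in chow renin (log2 0.50 ± 0.16 SE, edgeR adjusted p = 0.0342), and its log2 fold change was 0.35 against chow control (adjusted p = 0.252) and 0.48 against high-fat control (adjusted p = 0.065). Without that replicate 1 the Xirp1 values were 0.18 against chow renin (adjusted p = 0.19), 0.05 against chow control and 0.18 against high-fat control. Xirp1 was called against high-fat control without high-fat renin replicate 3 (log2 0.56, adjusted p = 0.0333) or 4 (log2 0.57, adjusted p = 0.0258). It was also called there by DESeq2 (0.47, adjusted p = 0.0252), by limma on log2(TPM + 1) (0.52, adjusted p = 0.0403) and among genes with a mean of at least 20 CPM (0.47, adjusted p = 0.0347). The clock score as a term turned the Xirp1 value to -0.58 against chow control (adjusted p = 0.481) and -0.15 against high-fat control (adjusted p = 0.845), and gave a called value of -0.79 for chow renin against chow control (adjusted p = 6.06e-05). The Xirp1 call against chow renin also ended without any of chow renin replicates 1, 3, 4, 5 and 6. That call ended with upper-quartile scaling, no filter on low counts, a mean of at least 20 CPM, only the groups compared, the replicate block, limma and the clock score as a term as well, at log2 values of 0.44, 0.48, 0.43, 0.50, 0.41, 0.31 and 0.21 and adjusted p of 0.0576, 0.0747, 0.0688, 0.0998, 0.0915, 0.226 and 0.106. It ended without the libraries with atrial transcripts (log2 0.55, adjusted p = 0.0974), and the neuron and glia score as a term turned its sign (log2 -0.17, adjusted p = 0.973).

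Ankrd1 (ENSMUSG00000024803, chromosome 19, 36111961 to 36120099, minus strand), is the stretch marker named above. In chow control its level was 747.6, 653.9, 1832 and 1132 CPM in replicates 1 to 4. In high-fat renin it was 2840, 3453, 2076, 1907 and 3200 CPM in replicates 1 to 5. Chow renin ran from 499.5 to 1807 CPM with a median of 1593, and high-fat control from 506.3 to 1036 CPM with a median of 884.8. All 5 high-fat renin libraries were above all others, the highest chow control library was replicate 3, which carries atrial transcripts, and replicate 6 was the lowest of chow renin. Ankrd1 was 2.47-fold higher in high-fat renin than in chow control (log2 1.30 ± 0.36 SE, edgeR adjusted p = 0.0316) and 3.32-fold higher than in high-fat control (log2 1.73 ± 0.32 SE, adjusted p = 0.00285). It was 1.92-fold higher than in chow renin (log2 0.94 ± 0.31 SE, adjusted p = 0.0373). The Ankrd1 call against chow control ended without any of 6 libraries (chow control replicates 1, 2 and 4 and high-fat renin replicates 1, 2 and 5), with adjusted p up to 0.102. It also ended, at the same log2 value of 1.30, with no filter on low counts (adjusted p = 0.0544) and with only the groups compared in the fit (adjusted p = 0.0706). The call of Ankrd1 against chow renin ended without any of chow renin replicates 1, 3 and 4 and high-fat renin replicates 1, 2 and 5, with adjusted p up to 0.0941. It ended too with upper-quartile scaling (0.88, adjusted p = 0.0552), no filter (0.93, adjusted p = 0.0669) and a mean of at least 20 CPM (0.87, adjusted p = 0.0592). Without the libraries with atrial transcripts the fold changes of Ankrd1 were 1.74 (log2, adjusted p = 0.0228), 1.84 (adjusted p = 0.00748) and 1.09 (adjusted p = 0.064) in the same order. The clock score as a term gave log2 fold changes of 0.72 (adjusted p = 0.866), 1.34 (adjusted p = 0.525) and 0.77 (adjusted p = 0.128) for Ankrd1. Its interaction was 1.37 ± 0.45 SE (adjusted p = 0.064 with edgeR and 0.0189 with DESeq2).

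The main Ankrd1 transcript, Ankrd1-205, held 92.0% of the gene's TPM on average, and it starts upstream of the start in RefSeq's table. The window before the RefSeq start holds the M-CAT motif of TEAD factors, CATTCC, at 2 places on the reverse strand, and a GATA motif, AGATAA, also on the reverse strand. TEAD factors are the DNA-binding partners of the stretch-responsive regulators Yap1 and Wwtr1. That window overlaps annotated untranslated sequence, so only 30 bases around each M-CAT match are shown, with the match in capitals, at chr19:36120037-36120066 and chr19:36119950-36119979 on the minus strand.
Ankrd1 first M-CAT: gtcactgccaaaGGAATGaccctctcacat
Ankrd1 second M-CAT: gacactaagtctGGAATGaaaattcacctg
The M-CAT letters occur in 12.6% and the GATA letters in 9.99% of all windows.

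Ankrd23 (ENSMUSG00000067653, chromosome 1, 36530188 to 36536883, minus strand) codes for a close relative of the Ankrd1 protein. Chow control replicates 2 to 4 were at 197.2, 445.8 and 262.3 CPM and replicate 1 lay between the first and the last of these (7.90 on the log2 CPM scale). High-fat renin replicates 1 to 5 were at 1149, 863.1, 717.3, 618.3 and 891.2 CPM. The chow renin range was 244.3 to 496.5 CPM (median 405.3), and that of high-fat control 203 to 404.4 CPM (median 322.9). The high-fat renin libraries were again above all others, and chow control replicate 3 and chow renin replicate 6 were the highest and the lowest of their groups, as for Ankrd1. Ankrd23 was 2.96-fold higher in high-fat renin than in chow control (log2 1.57 ± 0.26 SE, edgeR adjusted p = 0.00169). It was 2.64-fold higher than in high-fat control (log2 1.403 ± 0.23 SE, adjusted p = 0.00142) and 2.14-fold higher than in chow renin (log2 1.099 ± 0.22 SE, adjusted p = 0.00133). These calls of Ankrd23 held without any single library and without the libraries with atrial transcripts. Renin on chow gave a log2 fold change of 0.47 (adjusted p = 0.242), which was 0.77 (adjusted p = 0.0308) without chow control replicate 3. The clock score as a term gave 0.80 against chow control (adjusted p = 0.72) and 0.89 against high-fat control (adjusted p = 0.446), and the neuron and glia score as a term gave 0.86 against chow renin (adjusted p = 0.854).

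Ankrd23-201, the transcript ENSMUST00000194853 and Ankrd23-202 held 44.9%, 31.0% and 23.7% of the Ankrd23 TPM on average. Their shares in high-fat renin and chow control were 44.1% and 46.4%, 32.6% and 29.7%, and 23.0% and 23.4%, and none passed the exact permutation test over shares after adjustment (adjusted p of 0.159, 0.159 and 0.875). In a fit of edgeR to 40192 transcripts, added after the data were seen, all 3 transcripts were higher in high-fat renin than in chow control by 1.53 to 1.73 on the log2 scale, with 1.12% of all transcripts called. In that fit Ankrd1-205 was called against high-fat control (1.76, adjusted p = 0.0102) and not against chow control (1.31, adjusted p = 0.0813) or chow renin (0.91, adjusted p = 0.122). Xirp2-202 was called in all 3 comparisons (1.78, 1.98 and 1.49), and Xirp1-201, Fhl2-201 and Fhl2-202 in none. The window before the start that Ankrd23-201 and ENSMUST00000194853 share, chr1:36535740-36535989 on the minus strand, is shown because it holds 1 M-CAT match (capitals), 120 to 115 bases before that start.
Ankrd23 promoter: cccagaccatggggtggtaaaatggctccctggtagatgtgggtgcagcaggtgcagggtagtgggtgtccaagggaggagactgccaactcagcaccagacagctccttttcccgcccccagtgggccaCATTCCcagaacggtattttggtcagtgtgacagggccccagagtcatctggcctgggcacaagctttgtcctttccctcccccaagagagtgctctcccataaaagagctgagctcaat
The gene Gm42417 overlaps Ankrd23 on the same strand, and its level was at most 2.49 CPM in any library.

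Csrp3 (ENSMUSG00000030470, chromosome 7, 48830398 to 48848033, minus strand), the gene of muscle LIM protein, differed less. In chow control its level was 717.1, 744.3, 782.3 and 804.2 CPM in replicates 1 to 4. In high-fat renin it was 1146, 933.7, 804.5, 807.1 and 924.6 CPM in replicates 1 to 5. The range was 629.5 to 811.5 CPM in chow renin (median 792.4), and in high-fat control 668.7 to 850.7 CPM (median 731). All high-fat renin libraries were above those of chow control, 2 of them by little, and 3 of 5 were above all of high-fat control and of chow renin. Csrp3 was 1.25-fold higher in high-fat renin than in high-fat control (log2 0.32 ± 0.087 SE, edgeR adjusted p = 0.0191) and 1.2-fold higher than in chow renin (log2 0.26 ± 0.087 SE, adjusted p = 0.0306). Against chow control the log2 fold change was 0.28 ± 0.097 SE (adjusted p = 0.077), and Csrp3 was called there without high-fat renin replicate 3 (adjusted p = 0.0419) or 4 (adjusted p = 0.0372). With upper-quartile scaling the call of Csrp3 against chow renin ended (0.21, adjusted p = 0.0879), as it did with a mean of at least 20 CPM (0.19, adjusted p = 0.118), the replicate block (0.24, adjusted p = 0.0564), limma (0.14, adjusted p = 0.349) and the clock score as a term (0.16, adjusted p = 0.16). Without high-fat renin replicate 1 the call of Csrp3 against high-fat control ended (log2 0.23, adjusted p = 0.102). Against chow renin it ended without that library (log2 0.15, adjusted p = 0.227), high-fat renin replicates 2 or 5, or chow renin replicates 1, 3, 5 or 6, and without the libraries with atrial transcripts (adjusted p = 0.0721). With only the groups compared in the fit, the call of Csrp3 against high-fat control also ended (0.32, adjusted p = 0.0828), and among genes with a mean of at least 20 CPM it was called against chow control (0.28, adjusted p = 0.0479). With the clock score as a term the value against chow control was -0.07 (adjusted p = 0.956). The neuron and glia score as a term turned the Csrp3 value against chow renin to -0.03 (adjusted p = 0.994), and the clock score as a term gave 0.09 against high-fat control (adjusted p = 0.903).

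A short transcript, Csrp3-203, went the other way. It is annotated with 362 bases and an incomplete coding sequence, its first exon lies within the gene, and it was singled out after its values were seen. Its level was 4.63 to 10.9 TPM in high-fat renin (n = 5), 15.3 to 27.0 TPM in high-fat control (n = 6), 14.7 to 22.0 TPM in chow renin (n = 6) and 19.1 to 27.2 TPM in chow control (n = 4). The high-fat renin range did not overlap the others, and the reads behind it were few, at 19.8 to 48.7 estimated reads in those 5 libraries. In the transcript fit of edgeR, Csrp3-203 fell by 1.45 on the log2 scale against chow control (adjusted p = 0.00928), by 1.27 against high-fat control (adjusted p = 0.0127, with 1.59% of all transcripts called) and by 1.04 against chow renin (adjusted p = 0.0109, with 3.75% called). The full-length Csrp3-201 held 98.0% of the gene's TPM on average and was called in none of these comparisons in that fit (0.29, 0.33 and 0.24, adjusted p of 0.204, 0.067 and 0.168).

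Fhl1 (ENSMUSG00000023092, chromosome X, 56731787 to 56793346, plus strand) codes for a LIM-only protein with several known isoforms. In chow control the gene was at 87.1, 79.5, 106.2 and 72.8 CPM in replicates 1 to 4. Replicates 1 to 5 of high-fat renin were at 150.9, 113.1, 128.1, 126.2 and 136.5 CPM. The chow renin libraries ran from 75.4 to 98.5 CPM (median 80.0) and high-fat control from 81.3 to 129.5 CPM (median 96.4). The high-fat renin libraries lay above all of chow control and chow renin, while 2 of 5 lay above all of high-fat control, whose highest library was replicate 3, with atrial transcripts. Fhl1 was 1.52-fold higher in high-fat renin than in chow control (log2 0.60 ± 0.12 SE, edgeR adjusted p = 0.0052) and 1.55-fold higher than in chow renin (log2 0.63 ± 0.11 SE, adjusted p = 0.000183). It was 1.33-fold higher than in high-fat control (log2 0.41 ± 0.11 SE, adjusted p = 0.0211). The Fhl1 call against high-fat control ended without high-fat renin replicate 1 (adjusted p = 0.0856) or 5 (adjusted p = 0.0573). Limma on log2(TPM + 1) called Fhl1 neither against chow control (0.44, adjusted p = 0.197) nor against high-fat control (0.49, adjusted p = 0.0601). The clock score as a term gave 0.29 against chow control (adjusted p = 0.812) and 0.21 against high-fat control (adjusted p = 0.822), and the neuron and glia score as a term gave 0.69 against chow renin (adjusted p = 0.58).

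The transcripts of Fhl1 differed among themselves. Fhl1-201, which begins at the 5′ end of the gene, and ENSMUST00000114772, the main transcript of an internal first exon, held 51.7% and 19.4% of the gene's TPM on average. The share of the main internal transcript was 9.7%, 10.2%, 19.9% and 1.1% in chow control replicates 1 to 4 and 50.03%, 35.1%, 30.3%, 33.2% and 53.3% in high-fat renin replicates 1 to 5. It ran from 2.27% to 10.7% in high-fat control and from 2.55% to 29.5% in chow renin. Every high-fat renin library was above every other library. The share of the main internal transcript was 32.08 percentage points higher in high-fat renin than in high-fat control (two-sided exact permutation p = 0.00216, the smallest that 5 against 6 samples allow, adjusted p = 0.0433 over 40 tests of 8 transcripts). The share of Fhl1-201 fell by 26.93 points in the same comparison (exact p = 0.00216, adjusted p = 0.0433). Against chow control the share of the main internal transcript differed by 30.15 points (exact p = 0.00794, the smallest for 5 against 4, adjusted p = 0.0635) and against chow renin by 21.32 points (exact p = 0.00433, adjusted p = 0.0577). Of the 40 tests, 2 passed after adjustment. Both calls ended when any 1 of the 11 libraries was left out (adjusted p of 0.0635 to 0.0952), while the differences ran from 28.85 to 34.59 points for the main internal transcript and from -29.3 to -24.6 points for Fhl1-201. With the libraries with atrial transcripts left out 0 passed, with adjusted p of 0.159 for both transcripts, where fewer samples also raise the smallest p.

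Fhl1 transcripts were then summed by where they start, a grouping chosen after the data were seen. Those from the upstream start (Fhl1-201, Fhl1-203 and Fhl1-206) had 22.4 ± 3.16 TPM (SD, n = 5) in high-fat renin, 27.6 ± 4.62 (n = 6) in high-fat control, 23.8 ± 3.16 (n = 6) in chow renin and 23.8 ± 1.06 (n = 4) in chow control. Those from the internal start (ENSMUST00000114772, Fhl1-202, Fhl1-205 and Fhl1-210) were at 7.67, 6.38, 20.2 and 2.61 TPM in chow control replicates 1 to 4 and at 41.7, 20.3, 22.0, 21.8 and 35.3 TPM in high-fat renin replicates 1 to 5. They were at 3.72 to 16.9 TPM in chow renin and at 3.93 to 10.3 TPM in high-fat control. The lowest high-fat renin library was just above the highest chow control library, which is the one with atrial transcripts. In 4 of the 5 libraries with atrial transcripts, the internal-start TPM was the highest of its group or next to it, and the part of atrial tissue in that was not tested. The internal-start TPM was 22.35 higher in high-fat renin than in high-fat control (exact permutation p = 0.00216, adjusted p = 0.0162 over 15 tests), 17.77 higher than in chow renin (exact p = 0.00216, adjusted p = 0.0162) and 18.99 higher than in chow control (exact p = 0.00794, adjusted p = 0.0397). In the transcript fit of edgeR, the main internal transcript was called higher against high-fat control (log2 2.64 ± 0.60 SE, adjusted p = 0.0337) and not against chow control (log2 2.26, adjusted p = 0.135) or chow renin (log2 1.67, adjusted p = 0.135). That fit also called Fhl1-201, the main upstream transcript, lower than in high-fat control (log2 -0.46 ± 0.11 SE, adjusted p = 0.042). The upstream-start TPM was 1.43 lower than in chow control (exact p = 0.468) and 5.25 lower than in high-fat control (exact p = 0.0455, adjusted p = 0.17). In shares, the internal start held 46.2% ± 10.1 of Fhl1 TPM in high-fat renin (n = 5), against 13.5% ± 2.67 in high-fat control (n = 6), 24.4% ± 8.95 in chow renin (n = 6) and 18.6% ± 11.1 in chow control (n = 4). The 3 transcripts with other starts held 25.8% ± 6.39 in chow control and 17.8% ± 3.27 in chow renin. This difference of a single exposure passed (exact permutation p = 0.00952, adjusted p = 0.0238 over 15 tests), and not without the libraries with atrial transcripts (adjusted p = 0.0612). In TPM the difference was -4.1 and did not pass (exact permutation p = 0.0905, adjusted p = 0.271). These 3 transcripts had 60.1 to 196.9 estimated reads per library in the 2 groups. Without the libraries with atrial transcripts the internal-start shares were 48.8% in high-fat renin, 13.1% in high-fat control, 20.7% in chow renin and 13.5% in chow control, with exact permutation p of 0.00794, 0.0286 and 0.0286 for the differences from high-fat renin (adjusted p of 0.0595, 0.0612 and 0.0612), each p the smallest that those numbers of samples allow. Reads that fall in exons shared by these transcripts were divided among them by estimation, which limits how far single transcripts can be told apart.

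The internal first exon of ENSMUST00000114772 carries its own start codon, shown in capitals, at chrX:56779773-56779794 on the plus strand in GRCm38.
Fhl1 internal first coding exon: ATGgcttctcaaagacactcag
The exon is shared with Fhl1-202, and ENSMUST00000114772 has 888 coding bases, 48 more than the 840 of Fhl1-201. The bases before RefSeq's internal start, chrX:56779524-56779682 on the plus strand, are shown because they hold the only CArG box among the Fhl1 windows, in capitals. The CArG box is the binding motif of serum response factor, the product of Srf.
Fhl1 internal promoter: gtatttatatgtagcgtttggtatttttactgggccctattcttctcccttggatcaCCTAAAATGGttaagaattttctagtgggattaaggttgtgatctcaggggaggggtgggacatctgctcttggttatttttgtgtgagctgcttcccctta
A CArG box occurs in 1.47% of all windows. Both Fhl2 windows hold one as well, while the Csrp3 windows hold none of the motifs as searched. No member window holds the NKX2-5 motif CACTTAA, found in 2.1% of all windows. RefSeq's table matched 6 of the 7 genes with 10 windows in all, and the 10 motif matches found there do not overlap.

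**Figure D3:**
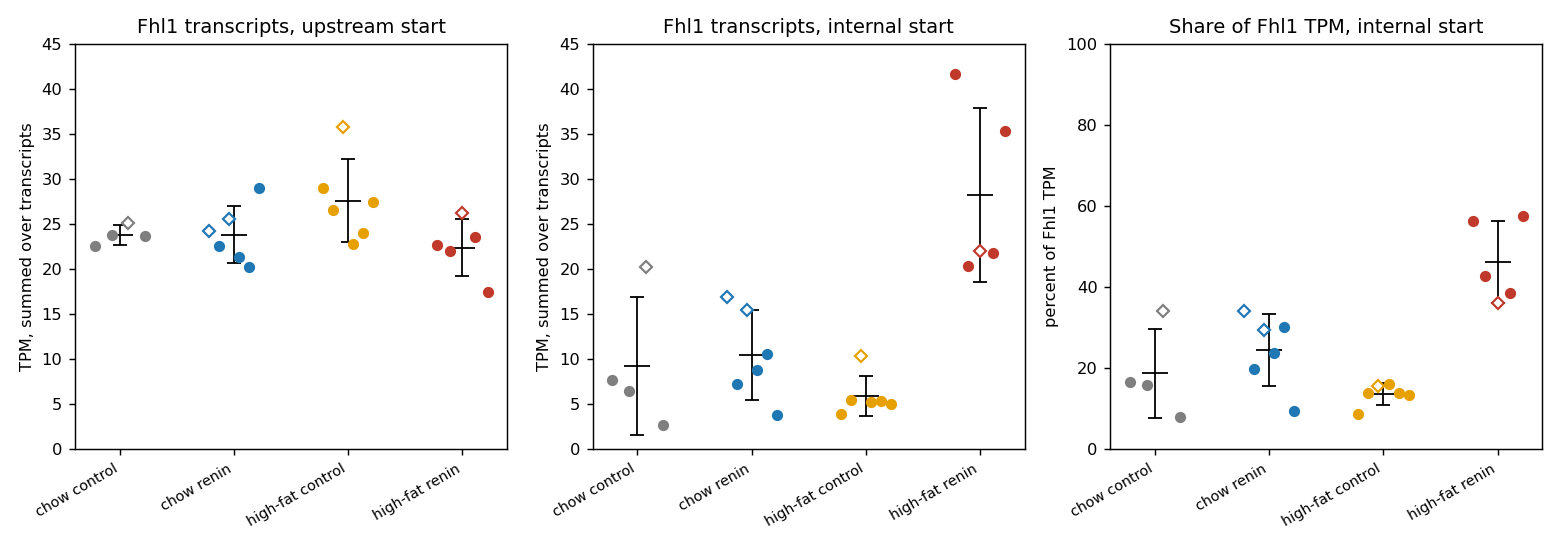
Fhl1 TPM from the upstream start, from the internal start, and the internal share of Fhl1 TPM in percent (y axes, from 0) in each library (points) by group (x axis), with mean ± SD as bars and libraries with atrial transcripts as open diamonds. The upstream TPM lies between 17.5 and 35.8 in all libraries, while the internal TPM is 20.3 to 41.7 in high-fat renin and at most 20.2 elsewhere.

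Fhl2 (ENSMUSG00000008136, chromosome 1, 43123074 to 43196984, minus strand) codes for a LIM-only protein known to restrain hypertrophic signalling. In chow control its level was 1219, 1251, 843.4 and 939.7 CPM in replicates 1 to 4. High-fat renin replicates 1 to 5 were at 1285, 1093, 977.5, 1151 and 1102 CPM. The chow renin range was 729.1 to 964.4 CPM (median 855.4) and that of high-fat control 853.5 to 1233 CPM (median 1068). High-fat renin lay above chow renin without overlap and overlapped the other groups. Fhl2 was 1.30-fold higher in high-fat renin than in chow renin (log2 0.38 ± 0.10 SE, edgeR adjusted p = 0.00897), a call that ended without high-fat renin replicate 1 (log2 0.31, adjusted p = 0.058). Its log2 fold change was 0.08 against chow control (95% interval -0.15 to 0.30, adjusted p = 0.726) and 0.09 against high-fat control (-0.11 to 0.30, adjusted p = 0.616). Between chow renin and chow control it was -0.30 ± 0.11 SE (adjusted p = 0.0684), and it was called without chow control replicate 3 (log2 -0.40, adjusted p = 0.0137) or chow renin replicate 6 (log2 -0.34, adjusted p = 0.0495). The neuron and glia score as a term took the Fhl2 value against chow renin to -0.016 (adjusted p = 0.998). Of the main transcripts of Fhl2, Fhl2-202 held 76.6% in high-fat renin and 76.7% in chow control (exact permutation p = 0.937, adjusted p = 0.961).

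The single exposures gave the following intervals in the reported fit, which do not cover the alternatives. For chow renin against chow control, the 95% intervals of the log2 fold change were -0.26 to 0.79 for Xirp2, -0.49 to 0.20 for Xirp1, -0.30 to 1.02 for Ankrd1, -0.01 to 0.94 for Ankrd23, -0.17 to 0.20 for Csrp3, -0.26 to 0.20 for Fhl1 and -0.52 to -0.09 for Fhl2. With the clock score as a term 4 of 7 values lay outside these intervals (Xirp1 -0.79, Xirp2 -0.44, Csrp3 -0.24 and Ankrd23 -0.06), of which Xirp1 was called, and with the neuron and glia score 4 of 7, none called (Xirp2 1.14, Xirp1 0.60, Csrp3 0.36 and Fhl2 0.16). For high-fat control against chow control they were -0.72 to 0.31 for Xirp2, -0.47 to 0.22 for Xirp1, -1.08 to 0.22 for Ankrd1, -0.31 to 0.63 for Ankrd23, -0.23 to 0.14 for Csrp3, -0.04 to 0.43 for Fhl1 and -0.23 to 0.20 for Fhl2, and limma's -0.05 for Fhl1 lay outside. The interaction was above 0 for all 7 genes in the reported fit, from 0.31 for Csrp3 to 1.72 for Xirp2, with edgeR adjusted p of 0.064 to 0.133 for the 6 that were not called. The 7 values come from the same libraries and are not independent, and the median interaction over all genes was 0.008. With the neuron and glia score as a term the interaction was below 0 for Xirp1 (-0.24), Csrp3 (-0.08) and Fhl2 (-0.12), and 0.151% of all genes were called. Calls of the interaction were added with the clock score as a term for Xirp1 (0.64), Ankrd23 (0.95), Csrp3 (0.33) and Fhl1 (0.46), with the atrial score for Fhl1 (0.44) and Fhl2 (0.40), with DESeq2 for Ankrd1 (1.35), without the libraries with atrial transcripts for Fhl1 (0.52), and with the replicate block for Fhl1 (0.395). Leaving out 1 library brought calls of the interaction for Ankrd1 (without chow control replicate 2, adjusted p = 0.0464, or high-fat renin replicate 4, adjusted p = 0.0481), Ankrd23 (without high-fat renin replicate 4, adjusted p = 0.0478), Fhl1 (without high-fat control replicate 3, adjusted p = 0.0177) and Fhl2 (without chow control replicate 3, adjusted p = 0.0304).

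In the authors' deposited table, whose comparison is headed by high-fat diet and virus with no reference group stated, the log2 fold changes were 1.64 for Xirp2 (adjusted p = 4.54e-08), 1.48 for Ankrd23 (1.57e-08) and 0.90 for Ankrd1 (0.00277). The authors' deposited table gives 0.22 for Fhl1 (adjusted p = 0.0904), 0.17 for Csrp3 (0.108), 0.17 for Xirp1 (0.209) and 0.04 for Fhl2 (0.813).

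Genes of related function were read from 4 lists, also chosen with earlier results of these data known. Their counts stand beside 8.29%, 11.1% and 22.6% of all genes called for high-fat renin against chow control, high-fat control and chow renin. The shares called were 13.5% for chow renin against chow control and 10.4% for the interaction. Of 28 tested relatives with ankyrin repeats or LIM domains (Fhl5 was not tested), 2 rose and 1 fell in high-fat renin against chow control, 4 rose and 2 fell against high-fat control, and 4 rose against chow renin, where 9.8% of all genes were called higher and 12.8% lower. These shares of relatives were near or below the background against chow control and chow renin. Nrap, which codes for a LIM and nebulin-repeat protein of the intercalated disc, was higher than in chow control (log2 0.62 ± 0.13 SE, edgeR adjusted p = 0.00449) and than in high-fat control (log2 0.68, adjusted p = 0.0013). Pdlim1, which codes for a PDZ and LIM adaptor of actin filaments, was higher than in chow control (log2 0.49, adjusted p = 0.0241), high-fat control (log2 0.62, adjusted p = 0.00241) and chow renin (log2 0.44, adjusted p = 0.00776). Pdlim5, a Z-disc PDZ and LIM gene, was higher than in high-fat control (log2 0.42, adjusted p = 0.00473) and chow renin (log2 0.50, adjusted p = 0.000174), where Lpp also rose (log2 0.37, adjusted p = 0.00522). Lmo7 fell by 0.34 against chow control (adjusted p = 0.0172). Named after their values were seen, Crip2 and Ablim3 fell by 0.40 and 0.30 against high-fat control (adjusted p of 0.0138 and 0.0137), Ankrd2 rose there but stayed under 1 CPM in all libraries (highest 0.969), and Nrap rose against chow renin (log2 0.32, adjusted p = 0.0419). The interaction was called for Pdlim5 (0.66), Pdlim1 (0.58) and Ablim3 (-0.36), with adjusted p of 0.00113, 0.0319 and 0.0405. Medians of the list lay between -0.009 and 0.112 over the 6 comparisons.

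Of 31 tested partners at the Z-disc, the titin spring and the intercalated disc (Myoz1 was not tested), 5 rose and 0 fell in high-fat renin against chow control, 7 rose and 2 fell against high-fat control, and 16 rose and 0 fell against chow renin. The last is to be read beside 9.8% of all genes called higher there. Flnc, which codes for the actin crosslinker filamin C that binds Xin proteins, rose in all 3 comparisons by 0.73 (adjusted p = 0.00441), 0.79 (adjusted p = 0.00138) and 0.77 (adjusted p = 0.000151) on the log2 scale. Its level was 473.3 ± 35.4 CPM in chow control (SD, n = 4) and 787.3 ± 191.9 in high-fat renin (n = 5). Sorbs2, which codes for an adaptor of the Z-disc and intercalated disc, rose by 0.92 against chow control (adjusted p = 0.00601) and 0.96 against high-fat control (adjusted p = 0.00201). Synpo2l, which codes for an actin-bundling Z-disc protein, rose by 1.31 against high-fat control (adjusted p = 0.00204), and Capn3, a titin-bound protease gene, by 0.75 against chow control (adjusted p = 0.0181). Against chow renin, Smpx rose by 0.32 (adjusted p = 0.000582) and the integrin gene Itgb1 by 0.34 (adjusted p = 0.000727). Named after their values were seen, Tcap, which codes for the titin cap, and Itgb1bp2 fell by 0.43 and 0.21 against high-fat control (adjusted p of 0.0168 and 0.0466), and Synpo2l and Itgb1 were the other genes that rose against chow control. In chow renin against chow control, Palld fell by 0.21 (adjusted p = 0.0144) and Itgb1bp2 by 0.24 (adjusted p = 0.0241) and 0 of 31 rose. There 10.1% of all genes were called higher and 3.36% lower. The interaction was called, upward, for 8 of 31, among them Flnc (0.82), Des (0.37) and Synpo2l (1.31), with adjusted p of 0.00633, 0.00857 and 0.0135. Of all genes, 3.14% were called higher and 7.3% lower for the interaction.

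Of 23 transcription regulators and calcineurin genes, 2 rose and 2 fell in high-fat renin against chow control, 3 rose and 3 fell against high-fat control, and 6 rose and 1 fell against chow renin, beside 8.29%, 11.1% and 22.6% of all genes called. Rcan1, a calcineurin inhibitor gene that is itself switched on by calcineurin, rose by 1.31 (adjusted p = 0.012), 1.47 (adjusted p = 0.00243) and 1.17 (adjusted p = 0.00299) on the log2 scale. Ybx1, which codes for a protein that binds the Ankrd1 protein, fell by 0.28 against chow control (adjusted p = 0.0311) and 0.39 against high-fat control (adjusted p = 0.00191). Wwtr1 (TAZ, a TEAD partner) rose by 0.27 against chow control (adjusted p = 0.0351), Hdac5, which codes for a repressor of MEF2, fell by 0.37 against high-fat control (adjusted p = 0.00371), and Srf rose by 0.34 against chow renin (adjusted p = 0.00473). Ppp3ca, a calcineurin subunit gene, was higher in chow renin than in chow control (log2 0.40, adjusted p = 7.2e-06) and lower in high-fat renin than in chow renin (log2 -0.39, adjusted p = 3.52e-06). Named after their values were seen, Hdac5 also fell by 0.27 against chow control (adjusted p = 0.042), and against high-fat control Tead1 rose by 0.53 (adjusted p = 0.0163), Wwtr1 rose by 0.24 (adjusted p = 0.0287) and Gata6 fell by 0.37 (adjusted p = 0.0307). In chow renin, where the neuron and glia markers are also high, Ppp3ca was at 84.5 ± 5.83 CPM (SD, n = 6), against 64.2 ± 2.19 in chow control (n = 4), and the part of that tissue in it was not tested. Gata4 fell by 0.27 (adjusted p = 0.0339) and Tead4 rose by 0.51 (adjusted p = 0.0486) in chow renin against chow control. The interaction was called for Ppp3ca (-0.41, adjusted p = 0.000425), Tead1 (0.69, adjusted p = 0.0267) and Rcan1 (1.33, adjusted p = 0.0302), and also for Tead4 (-0.73, adjusted p = 0.0434), named after its value was seen.

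Of 14 genes known to respond to load, 4 rose in high-fat renin against chow control, 7 against high-fat control, and 4 rose while 1 fell against chow renin. Acta1, skeletal actin, had the largest rise against high-fat control (log2 3.91 ± 0.57 SE, adjusted p = 0.00106) and rose against chow control (log2 2.68, adjusted p = 0.0157). Hbegf, a growth factor gene, rose by 1.14 (adjusted p = 0.00772), 1.33 (adjusted p = 0.00137) and 0.73 (adjusted p = 0.0164) in the 3 comparisons. Gdf15, a stress cytokine gene, rose by 2.81 against chow control (adjusted p = 0.00987) and 2.11 against chow renin (adjusted p = 0.00437), and Myh7, the slow myosin gene, by 2.57 against high-fat control (adjusted p = 0.00371). Named after their values were seen, Myh7 rose by 2.05 against chow control (adjusted p = 0.0308), and Acta1 and Nes rose by 1.81 and 0.32 against chow renin (adjusted p of 0.0195 and 0.0372). Myc was higher in chow renin than in chow control (log2 1.198, adjusted p = 3.06e-08) and lower in high-fat renin than in chow renin (log2 -1.03, adjusted p = 4.86e-08), and Ccn1 was higher in chow renin than in chow control (log2 0.66, adjusted p = 0.00191). The interaction was called for Myc (-1.10, adjusted p = 1.31e-05) and Acta1 (3.04, adjusted p = 0.0145).

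**Figure D4:**
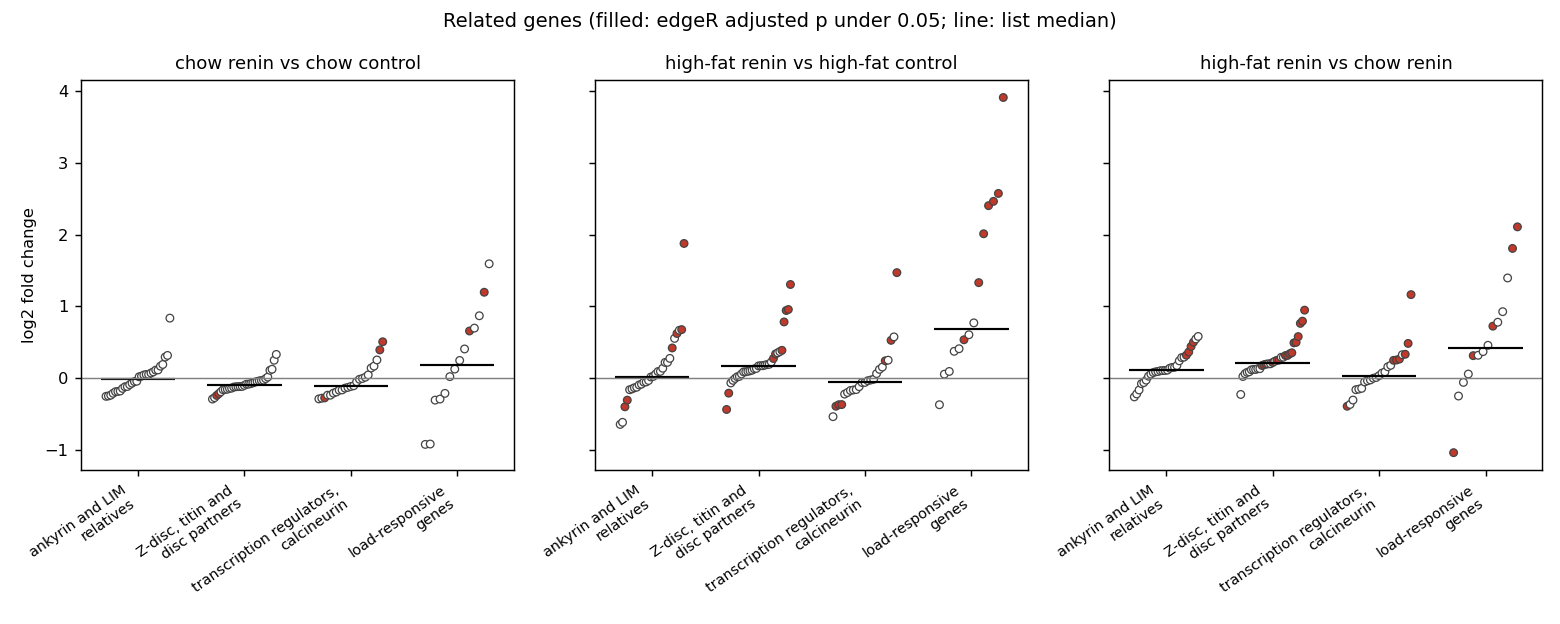
Log2 fold changes (y axis) of the genes of 4 related lists (x axis) in chow renin against chow control (left), high-fat renin against high-fat control (middle) and high-fat renin against chow renin (right), 1 point per gene, filled where the edgeR adjusted p is under 0.05, with the list median as a line. In the middle panel the load-responsive list has a median of 0.69 and the Z-disc list 0.17, and in the left panel the medians of all 4 lists lie between -0.11 and 0.19.

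The genes whose levels followed each member most closely were found over 10055 genes, as Pearson's r of log2 CPM over all 21 libraries. The libraries share the 4 groups, so the differences between groups enter each r, and r is given as a description. For Xirp2 the closest gene was Enah, which codes for an actin regulator, with r = 0.98 (Spearman's rho 0.90), followed by Spcs3 (0.96) and Cdv3 (0.95). For Ankrd1 they were Acta1 (r = 0.94), Nrap (0.92) and Prnp (0.91), and for Ankrd23 Prnp (0.97), Atp8a2 (0.93) and Rnf115 (0.93). For Csrp3 they were Pak6 (0.91), Pdlim1 (0.90) and Tnfrsf12a (0.90), for Fhl1 Inpp5j (0.89), Dact3 (0.88) and Lbp (0.88), and for Fhl2 Pptc7 (0.91), Hspd1 (0.89) and Ak4 (0.88). Xirp1 had Hs6st1 (r = 0.87), Lrrfip1 (0.87) and Nuak1 (0.86), and Spearman's rho of the last 2 was 0.61 and 0.59.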

How the data were processed

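RNA sequencing of heart tissue gave 21 transcript tables. Per the submitters' processing notes, Salmon 1.10.2 and DESeq2 1.40.2 were used with GRCm38 (mm10). Per the file headers, the authors deposited estimated counts and TPM for 119215 transcripts in each library. The authors also deposited a gene table with per-library signal, and with log2 fold changes and adjusted p-values of a comparison of their own. Transcripts were matched by identifier to GENCODE M21 (97.95% matched; 0.854% to 0.925% of reads unmatched and left out), and gene sums of the estimated counts, rounded, replaced the counts for which the tests had been planned.

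edgeR 4.0.16 (R 4.3.3) fitted all 21 libraries with 1 term per group (TMM, filterByExpr, robust glmQLFit), leaving 15216 genes, with Benjamini-Hochberg adjustment over them and calls at an adjusted p under 0.05. The F statistic gave the standard errors, and from them normal 95% intervals. Scores are mean log2 CPM (prior count 2). Shares of TPM were tested by two-sided exact permutation for transcripts with a mean share of 10% to 90%. Scripts were tested on simulated data. Sensitivity was checked with DESeq2 1.42.0, limma 3.58.1 on log2(TPM + 1), other scaling, filters, covariates, a replicate block and each library left out.

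The members and lists were chosen with earlier results of these data known. From each list, the 3 called genes with the smallest adjusted p in a comparison are named, beside all 7 members. The closest genes are the 3 with the highest r among genes with a mean of at least 5 CPM. Motifs were fixed with those lists: MEF2, the CArG box, M-CAT, GATA and NKX2-5, on both strands of the 250 bases before a start.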

Additional observations from a re-analysis of the deposited data

Results flagged for a closer look

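Over 36 groups of 4 to 6 libraries checked with Dixon's test at the 95% level, 4 held a library that stood apart, where chance flags about 1 in 20 groups. Xirp1 was at 404.7 CPM in high-fat renin replicate 1, with the next library at 205.5 CPM, and at 195.2 CPM in chow control replicate 3, with the next at 179.5 CPM. Csrp3 was at 629.5 CPM in chow renin replicate 6, below the next library at 781.9 CPM. The internal-start transcripts of Fhl1 were at 10.3 TPM in high-fat control replicate 3, with the next library at 5.38 TPM. Chow control replicate 3 and high-fat control replicate 3 are among the libraries with atrial transcripts.

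The effect of renin on Xirp2 differed between diets by 1.72 on the log2 scale, by edgeR's test of the interaction (adjusted p = 0.00337).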

How the results depend on the processing

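Of 455 values of the 7 genes under the alternatives other than leaving out single libraries, 374 kept sign and call, 17 kept the sign and gained a call, 39 kept the sign and lost one, and 25 changed sign. Of the 25, 22 were called in neither fit, most of them with the clock score or the neuron and glia score as a term. The 3 called in the reported fit were Xirp1 (-0.17), Csrp3 (-0.03) and Fhl2 (-0.016) for high-fat renin against chow renin with the neuron and glia score as a term. Members called against chow renin, 7 in the reported fit (22.6% of all genes), were 4 with upper-quartile scaling (20.3% of all genes) and with a mean of at least 20 CPM (17.2%). They were also 4 with the clock score as a term (16.9%), with limma (16.1%) and without the atrial libraries (16.2%), and 0 with the neuron and glia score (0.302%). They were 5 with no filter on low counts (12.6%, Xirp1 and Ankrd1 lost) and 6 with only the groups compared (24.8%, Xirp1 lost). Both of these settings also ended the call of Ankrd1 against chow control, and the second that of Csrp3 against high-fat control. Against high-fat control, DESeq2 (15.2% of all genes) and the mean of at least 20 CPM (24.9%) gave 6 in place of 5. The clock score as a term gave 0 in place of 4 against chow control and 0 in place of 5 against high-fat control. For the interaction, 1 in the reported fit (10.4% of all genes), DESeq2 gave 2 (11.9% of all genes) and the fit without the atrial libraries 2 (7.17%). The atrial score gave 3 (11.9%), the clock score 5 (12.8%) and the neuron and glia score 0 (0.151%). For chow renin against chow control, 0 in the reported fit (13.5% of all genes), the clock score (Xirp1, 9% of all genes) and the atrial score (Fhl2, 13.7%) each gave 1. The cause was not tested. With the replicate block, chow renin against chow control gave 1 (Fhl2, 14.8% of all genes) and the interaction 2 (10.6%). In that fit Xirp1 (0.41, adjusted p = 0.0915) and Csrp3 (0.24, adjusted p = 0.0564) lost their calls against chow renin, where 5 of 7 were left (24.1% of all genes). Same-numbered libraries are of different mice. Their deviations from the group means correlated from -0.226 to 0.421 over 28 same-numbered pairs, with 11 over 0.1. Pairs of unlike number were not compared, so these values cannot show whether the numbers carry a shared batch. The 6 pairs of replicates 3, all 4 of which carry atrial transcripts, were at 0.22 to 0.421, and the other 22 at -0.226 to 0.161. Isoform shares called were 2, 4 with shares of estimated counts and 0 without the atrial libraries.

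With single libraries left out, the members called ranged from 3 to 5 against chow control, 3 to 6 against high-fat control, 3 to 7 against chow renin, 0 to 2 for chow renin against chow control, 0 to 0 for high-fat control against chow control and 1 to 3 for the interaction. In the last 3 of these, the share of all genes called ran from 9.83% to 14.8%, from 0% to 0.375% and from 7.98% to 12.9%. Isoform shares called ranged from 0 to 2, where fewer samples raise the smallest exact p. Depth limits the lowest transcripts, such as Csrp3-203, more than the genes.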
